A study of Rattus norvegicus with 9 samples.

Results

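Immediate early genes are transcribed within minutes of a stimulus, from promoters that are already occupied by their activators, and need no new protein for it. In the brain most of them are read as a trace of recent neuronal firing: calcium and kinase signals reach the factors CREB and SRF, which switch the genes on, and the messages decay quickly. The products are transcription factors that act on slower genes, together with a few proteins that work at the synapse. In the hypothalamus, Fos staining is the classic mark of neurons recruited by stress, feeding or reproductive signals.

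This account covers 10 such genes: Fos, Fosb, Junb, Egr1, Egr2, Egr3, Egr4, Ier2, Arc and Nr4a1. They were chosen by name, and every probe set that the platform annotation gives to exactly 1 gene, that gene being one of the 10, was used. A probe set is the group of short oligonucleotides on an Affymetrix array that together report 1 transcript. The rule found 13 probe sets among 31042, and the 10 genes stand among 14217 that are named this way. Fos, Egr2 and Egr4 have 2 probe sets each and the other 7 genes have 1.

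The arrays measured the whole dissected hypothalamus of untreated, normally developing female rats, with no genetic or drug manipulation named in the labels. Juvenile rats were taken at day 26 (replicates 1, 2 and 3) and serve as the controls in the labels. Early pubertal rats were taken at day 29 (replicates 7, 8 and 10) and late pubertal rats at day 31 (replicates 12, 14 and 20). Each array is described as the hypothalamus of 1 rat, so n = 3 per stage counts animals; neither strain nor time of day is given in the labels used. In a piece of whole tissue, fewer cells of a type and less RNA per cell cannot be told apart.

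Levels below are log2(signal + 16) after quantile normalization between arrays, and differences are on that scale, which understates the change of dim probe sets. Median deposited signal ran from 79.8 to 122 over the 9 arrays. It was lower on each early pubertal array than on any juvenile array, and early pubertal replicate 10 was the dimmest. Arrays correlated at r = 0.967 to 0.979, and the 3′ to 5′ ratio of the actin control lay between 2.14 and 3.24. Of 12 hypothalamic marker genes, such as Avp, Oxt, Hcrt and Pmch, 10 exceeded the signal filter, while Sim1 and Otp, transcription factors of hypothalamic neurons, did not. The filter kept 18625 probe sets whose mean over all arrays lay above the 40th percentile, a log2 level of 6.30.

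Among the members, 8 probe sets of 8 genes passed that filter and were tested: Fos, Junb, Egr1, Egr3, Egr4, Ier2, Arc and Nr4a1 on their brightest probe set. The 5 others, both of Egr2, the only one of Fosb and the dimmer ones of Fos and Egr4, are given as levels without a test between stages. The filter ran close to some members: Egr3 lay just inside it at a mean of 6.31, with Egr4 at 6.36, and the brighter Egr2 probe set just outside at 6.29. The juvenile mean of Egr3 (5.89) and the early pubertal mean of Egr4 (6.004) lie under the filter. Both genes therefore entered the test through the stages where they are higher, and their tests are given as values that support nothing.

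The promoters were searched for letters that activity-dependent factors are known to bind, and 3 are printed here because Ier2, Egr2 and Nr4a1 hold different sets of matches. RefSeq promoter windows (GRCr8, 250 bases before to 50 after the annotated start) were matched by symbol for 7 of the 10 genes: Fosb, Junb, Egr1, Egr2, Egr4, Ier2 and Nr4a1. The bases shown end 1 base before the start and read 5′ to 3′ on the gene's strand. Capitals mark every match, on either strand, to the cyclic AMP response element bound by CREB (CRE, TGACGTCA), to its core (TGACG, or CGTCA on the other strand), to the CArG box bound by SRF, or to the site of Egr proteins (GCGNGGGCG).
Ier2, chr19:40399253-40399372, plus strand: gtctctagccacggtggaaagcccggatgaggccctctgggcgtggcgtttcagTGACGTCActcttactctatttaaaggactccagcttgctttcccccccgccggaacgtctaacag
Egr2, chr20:21054442-21054581, minus strand: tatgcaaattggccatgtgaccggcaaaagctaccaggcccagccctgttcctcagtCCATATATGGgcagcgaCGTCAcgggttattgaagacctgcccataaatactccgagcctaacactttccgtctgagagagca
Nr4a1, chr7:134259988-134260137, plus strand: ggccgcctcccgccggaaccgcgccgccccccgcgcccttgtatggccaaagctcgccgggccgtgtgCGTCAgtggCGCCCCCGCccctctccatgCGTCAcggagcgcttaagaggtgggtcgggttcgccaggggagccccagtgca

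Ier2 holds a full CRE, whose first base lies 66 bases before the start. Egr2 holds a CArG box 83 bases before the start and a CRE core at 66. Nr4a1 holds an Egr site at 73, flanked by CRE cores at 82 and 53. Over all 33469 promoter windows of this length, 1.83% hold the full CRE, 21.2% a core, 1.64% a CArG box and 4.98% an Egr site. A core lay in 6 of the 7 member windows, every one but that of Fosb, and each full CRE also counts as a core on both strands. The CArG box was in 2, Egr1 and Egr2. The AP-1 site TGANTCA, to which Fos and Jun proteins bind, was in 7.33% of all windows and in 0 of the 7. A match describes the letters only.

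The first comparison set day 29 against day 26, the step into early puberty. The mean of 9 of the 10 genes, each on its brightest probe set, was lower in early pubertal rats, where 48.7% of all named genes were lower. The median difference of the 10 was −0.27 on the log2 scale, beside 0.0041 for all named genes. The arrays of the stages did not overlap for 3 of the 10, Fos, Egr1 and Nr4a1, all lower at day 29, where 4.09% of named genes were apart in that direction and 4.61% in the other. By limma, 0 of the 8 tested members and 0% of all tested probe sets passed an adjusted p of 0.05. An unadjusted p under 0.05 was reached by Fos and Egr1 of the 8, both lower, against 2.54% of tested probe sets in that direction and 1.92% in the other. The members were chosen with earlier results of this comparison known, so the counts describe them and are no independent support.

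**Figure D1:**
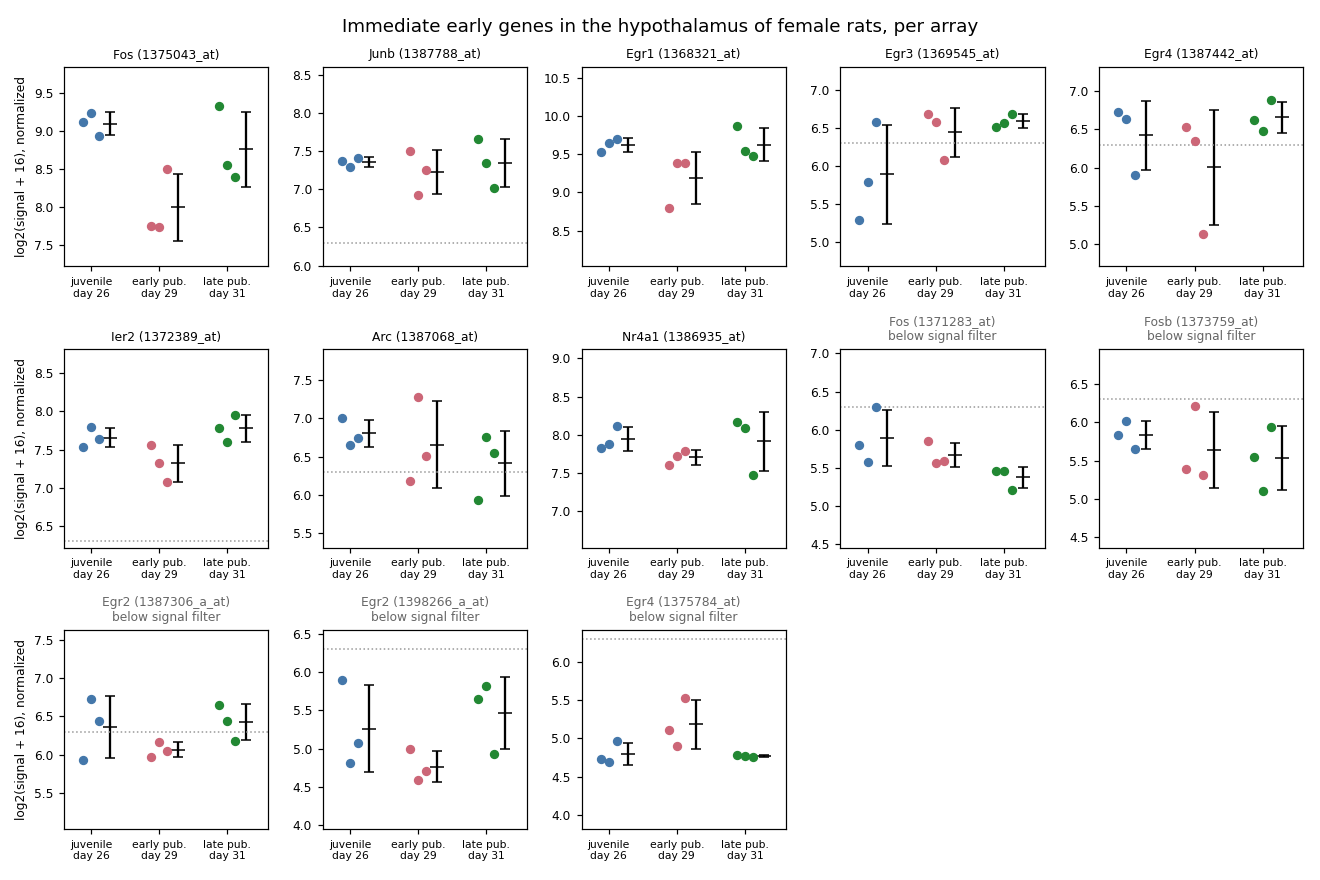
Normalized log2(signal + 16) of every probe set of the 10 genes on each of the 9 arrays, with the mean and SD of each stage in black (n = 3) and the signal filter at 6.30 as a dotted line; all panels span the same log2 range around their own level. Fos on its brighter probe set (1375043_at), Egr1 and Ier2 were lowest on average at day 29, while Egr3 was lowest on average at day 26.

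Fos encodes the AP-1 subunit whose message is the standard readout of neuronal activation. Its brighter probe set (1375043_at) had deposited signals of 636, 620 and 464 in juvenile replicates 1, 2 and 3. Early pubertal replicates 7, 8 and 10 had 197, 172 and 285, and late pubertal replicates 12, 14 and 20 had 609, 362 and 379. All 3 early pubertal rats lay below every other rat in deposited signal.

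After normalization the Fos levels were 9.11, 9.24 and 8.93 in juvenile, 7.75, 7.74 and 8.50 in early pubertal and 9.32, 8.56 and 8.40 in late pubertal rats. The juvenile values were tight and above all early pubertal ones, whereas early pubertal replicate 10 overlapped the late pubertal range. Early pubertal rats were 2.14-fold lower than juvenile ones, or −1.10 ± 0.24 on the log2 scale (SE, 3 rats per stage; 95% interval −1.63 to −0.56). This was the 9th smallest p of 18625 probe sets, but at an unadjusted 0.000771 it gave a limma adjusted p of 0.994.

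The scale decided whether Fos was called. On the deposited level, without normalization between arrays, the limma difference was −1.35 with an adjusted p of 0.00217, beside a median of −0.24 over all tested probe sets. Relative to that median it was −1.11, almost the size found after normalization. Leaving out single arrays, the normalized difference ranged from −1.35 without early pubertal replicate 10 to −0.97 without early pubertal replicate 8.

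The dimmer Fos probe set (1371283_at) lay below the filter and did not repeat the pattern. Its levels were 5.80, 5.58 and 6.30 in juvenile, 5.85, 5.57 and 5.59 in early pubertal and 5.46, 5.46 and 5.21 in late pubertal rats. Juvenile and early pubertal arrays overlapped, at a difference of −0.22 ± 0.24, and late pubertal arrays were the lowest. The 2 probe sets of Fos thus placed their lowest stage at different days.

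The other AP-1 genes did not separate the stages. Junb, a Jun subunit that pairs with Fos and tempers c-Jun, had levels of 7.37, 7.29 and 7.41 in juvenile, 7.50, 6.93 and 7.26 in early pubertal and 7.66, 7.35 and 7.02 in late pubertal rats. Its early pubertal difference was −0.13 ± 0.19, and the sign turned to 0.025 without early pubertal replicate 8. Fosb, whose stable splice form builds up with repeated activation, had stage means of 5.83 ± 0.19, 5.64 ± 0.50 and 5.53 ± 0.42 (SD, n = 3) in the order of age. All of these lie below the filter, and the stages overlapped.

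The Egr genes encode zinc-finger activators that share 1 DNA site, and they did not move as a block. Egr1, the member most widely used as an activity marker, had levels of 9.52, 9.65 and 9.70 in juvenile, 8.80, 9.39 and 9.38 in early pubertal and 9.87, 9.54 and 9.47 in late pubertal rats. Every early pubertal rat lay below every juvenile and every late pubertal rat, and replicate 7 was far the lowest. The difference from juvenile was −0.44 ± 0.16 (95% interval −0.78 to −0.09), with an unadjusted limma p of 0.0166 and an adjusted p of 0.994. It was −0.24 without early pubertal replicate 7.

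Egr2, known for its part in hindbrain patterning and Schwann cell myelination, was dim on both probe sets. The brighter one (1387306_a_at) read 5.93, 6.73 and 6.44 in juvenile, 5.97, 6.17 and 6.05 in early pubertal and 6.65, 6.44 and 6.18 in late pubertal rats. The other (1398266_a_at) had means of 5.26 ± 0.57, 4.76 ± 0.21 and 5.47 ± 0.47 (SD, n = 3). On both, the early pubertal mean was the lowest, by −0.30 ± 0.24 and −0.50 ± 0.32 (SE) from juvenile, with overlapping arrays.

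Egr3, a relative of Egr1, went the other way and was the 1 gene of the 10 with a higher early pubertal mean. Its levels were 5.30, 5.79 and 6.58 in juvenile, 6.68, 6.58 and 6.08 in early pubertal and 6.51, 6.57 and 6.68 in late pubertal rats. Juvenile rats were scattered, with replicates 1 and 2 below all others and replicate 3 within the pubertal range. The early pubertal difference was 0.55 ± 0.29 (limma adjusted p 0.994), and 0.25 without juvenile replicate 1.

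Egr4, a further member of the family, gave opposite signs on its probe sets. The brighter one (1387442_at) read 6.73, 6.64 and 5.90 in juvenile, 6.53, 6.34 and 5.14 in early pubertal and 6.62, 6.49 and 6.88 in late pubertal rats, a difference of −0.42 ± 0.34 from juvenile at day 29. Early pubertal replicate 10 was far the lowest rat, and without it the difference was 0.015. The dimmer one (1375784_at), at deposited signals of 9.99 to 21.8, had a difference of 0.39 ± 0.20.

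Nr4a1, an orphan nuclear receptor also called Nur77, had levels of 7.82, 7.89 and 8.12 in juvenile, 7.60, 7.72 and 7.79 in early pubertal and 8.17, 8.10 and 7.48 in late pubertal rats. Early pubertal rats lay just below juvenile ones without overlap, at −0.24 ± 0.18, or 1.18-fold. Ier2, a small nuclear protein of growth factor and activity responses, read 7.54, 7.79 and 7.64, then 7.56, 7.32 and 7.08, then 7.78, 7.60 and 7.95 in the same order. Its early pubertal difference was −0.34 ± 0.16, with replicate 7 inside the juvenile range, and it was −0.22 without early pubertal replicate 10.

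Arc encodes a protein of the postsynapse that drives uptake of AMPA receptors, and its message travels into dendrites. Its levels were 7.004, 6.66 and 6.74 in juvenile, 6.18, 7.28 and 6.51 in early pubertal and 5.94, 6.75 and 6.55 in late pubertal rats. The early pubertal rats spanned the whole juvenile range, at a difference of −0.15 ± 0.29, and the sign turned to 0.094 without replicate 7. Arc and Fos therefore ordered the early pubertal rats differently: replicate 8 had the lowest Fos level and the highest Arc level of all 9 rats.

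**Figure D2:**
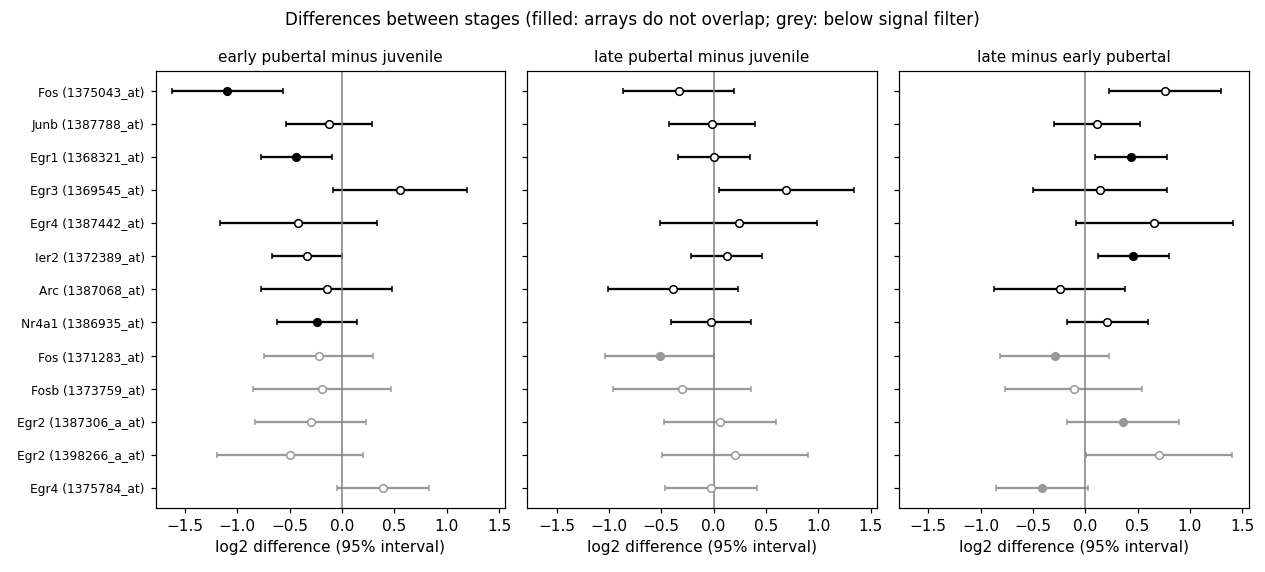
Log2 differences between stages with 95% intervals from the limma fit for each probe set (n = 3 per stage); filled points mark stages whose arrays do not overlap, and grey ones lie below the signal filter. In the first panel the interval of Fos ends at −0.56 and that of Egr1 at −0.09, while Egr3 lies at 0.55.

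The second comparison set day 31 against day 26 and so asked whether late pubertal rats differ from juveniles. The 10 genes were split, 5 lower and 5 higher on their brightest probe sets, with a median difference of −0.0061, beside 50.3% lower among all named genes. Arrays were apart for 0 of the 10, against 5.37% lower and 5.70% higher among all named genes. By limma, 0 of the 8 tested members passed, as did 0% of all tested probe sets, and an unadjusted p under 0.05 was found for Egr3 of the 8, against 2.23% in the higher direction and 1.92% in the lower. Egr3 passed the filter only through its pubertal levels and in 3 of the 9 fits that leave out an array, so this p carries no weight.

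The Egr1 means of the stages were nearly equal, 9.62 ± 0.09 and 9.63 ± 0.22 (SD, n = 3), with a 95% interval of −0.34 to 0.34 for the difference. Fos stood at −0.33 ± 0.24 (SE) on its brighter probe set, with late pubertal replicate 12 above every juvenile rat and the other late pubertal rats below them, and it was −0.62 without that replicate. Its dimmer probe set, below the filter, stood at −0.52 ± 0.24 with arrays apart. Egr3 was 0.70 ± 0.29 higher in late pubertal rats (1.62-fold; limma adjusted p 0.9998), and 0.39 higher without juvenile replicate 1.

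Arc stood at −0.39 ± 0.29, and at −0.15 without late pubertal replicate 12, its lowest rat. Ier2 stood at 0.12 ± 0.16 and Egr4 at 0.24 ± 0.34 on its brighter probe set. Junb and Nr4a1 were at −0.014 ± 0.19 and −0.027 ± 0.18. The 95% intervals of Arc, Ier2, Egr4, Junb, Nr4a1, Fos and Egr1 all included 0. A missed threshold with 3 rats a stage does not show that the stages are alike.

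The third comparison set day 31 against day 29, and it uses the same early pubertal rats as the first. Of the 10 genes, 8 had a higher mean in late pubertal rats and 2, Arc and Fosb, a lower one, where 51.4% of all named genes were lower. The median difference was 0.29, beside −0.0053 for all named genes. Arrays were apart for Egr1, Egr2 and Ier2, all higher at day 31, where 5.11% of named genes were, with 5.53% apart in the other direction. Again 0 of the 8 passed by limma, with 0% over all tested probe sets. An unadjusted p under 0.05 was reached by Fos, Egr1 and Ier2, against 2.94% in the higher direction and 2.27% in the lower.

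The dimmer Fos probe set, below the filter, was lower in late than in early pubertal rats, at −0.29 ± 0.24 (SE) with arrays apart. On its brighter probe set Fos was 1.70-fold higher in late than in early pubertal rats, or 0.76 ± 0.24 on the log2 scale (SE, 3 rats per stage), with an unadjusted limma p of 0.00905 and an adjusted p of 0.914. Without late pubertal replicate 12 this normalized difference was 0.48. On the deposited level, with all arrays, limma gave 0.98 with an adjusted p of 0.0394, beside a median of 0.22 over all tested probe sets. Egr1 was 0.44 ± 0.16 higher (95% interval 0.10 to 0.78), and 0.24 without early pubertal replicate 7.

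Ier2 was 0.46 ± 0.16 higher (95% interval 0.12 to 0.80), and each late pubertal rat lay above every early pubertal one. The brighter Egr2 probe set gave 0.36 ± 0.24 and its other 0.70 ± 0.32. Egr4 stood at 0.66 ± 0.34, and at 0.22 without early pubertal replicate 10, while its dimmer probe set stood at −0.41 ± 0.20. Nr4a1 stood at 0.21 ± 0.18, Egr3 at 0.14 ± 0.29, Junb at 0.11 ± 0.19 and Arc at −0.24 ± 0.29.

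Across all 3 stages the moderated F test of limma called 0 of the tested probe sets. Fos had an unadjusted F p of 0.00233, Egr1 of 0.0240 and Ier2 of 0.0318, each with an adjusted p of 0.974; an unadjusted F p under 0.05 was found for 4.22% of tested probe sets. By stage mean, Egr1, Ier2, Nr4a1, Junb, Egr2 and the brighter probe sets of Fos and Egr4 were lowest at day 29. Egr3 was lowest at day 26, and Arc, Fosb and the dimmer probe sets of Fos and Egr4 at day 31. Neighbours in these orders mostly overlapped: only Fos, Egr1, Nr4a1, Ier2 and Egr2 had any pair of stages with arrays fully apart on the brightest probe set.

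Single rats shaped these levels. Late pubertal replicate 12 had the highest level of the 9 rats for 4 of the 10 genes, Fos, Junb, Egr1 and Nr4a1, and the lowest for Arc. Late pubertal replicate 20 was highest for 3 of them, Egr3, Egr4 and Ier2. Early pubertal replicate 7 was lowest for Egr1, replicate 8 for Fos and Junb, and replicate 10 for Ier2 and Egr4, so the lowest early pubertal rat was not the same for these genes.

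Co-variation between rats was then measured over the 9 arrays, pairing the brightest Fos probe set with that of each other member, 9 relations in all. Egr1 followed Fos, with Pearson r = 0.81 (exact permutation p = 0.00137, adjusted 0.0123) and Spearman rho = 0.83 (exact p = 0.00827, adjusted 0.0622). The permutation ignored stage, so this p also takes in the stage difference of both genes. It is no p for co-variation within a stage, and none was computed. Without the rats farthest from the Fos median, early pubertal replicates 7 and 8, r was 0.78 over 7 rats (unadjusted exact p = 0.0401). Junb then had r = 0.72 (unadjusted exact p = 0.0391). Neither p is adjusted over the 9 relations, so neither counts as passing the threshold. As deviations from the stage means, which takes the stage difference out, r was 0.62 for Egr1, 0.50 for Junb and 0.50 for Nr4a1. The same deviations gave 0.35 for Egr2, −0.27 for Fosb, −0.42 for Ier2, −0.49 for Egr4, −0.50 for Egr3 and −0.52 for Arc, so Ier2 and Egr4 turned sign. The adjusted p of Egr1 over all rats was 0.0583 without juvenile replicate 2, 0.0879 without early pubertal replicate 7 and 0.0692 without late pubertal replicate 12.

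No other member passed the adjusted threshold with all 9 rats. Nr4a1 had r = 0.63 and rho = 0.80 with Fos (exact permutation p 0.0708 and 0.0138, adjusted 0.299 and 0.0622), and r = 0.53 without the rats farthest from the Fos median. Egr2 had r = 0.59, Junb 0.49 and Ier2 0.40, with adjusted exact p between 0.299 and 0.442. Without juvenile replicate 1 Egr2, whose probe set lies below the filter, passed as well, at r = 0.87. Junb ranged widely with the rats included, from r = 0.21 without early pubertal replicate 8 to 0.84 without early pubertal replicate 7 (exact permutation p = 0.00734, adjusted 0.0661).

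Egr3 had r = −0.53 with Fos (exact permutation p = 0.133, adjusted 0.300) and Arc −0.21 (adjusted 0.749). Egr4 and Fosb lay near 0, at 0.11 and −0.010. Whether the relation of Egr1 to Fos differs from that of the other members was not tested.

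**Figure D3:**
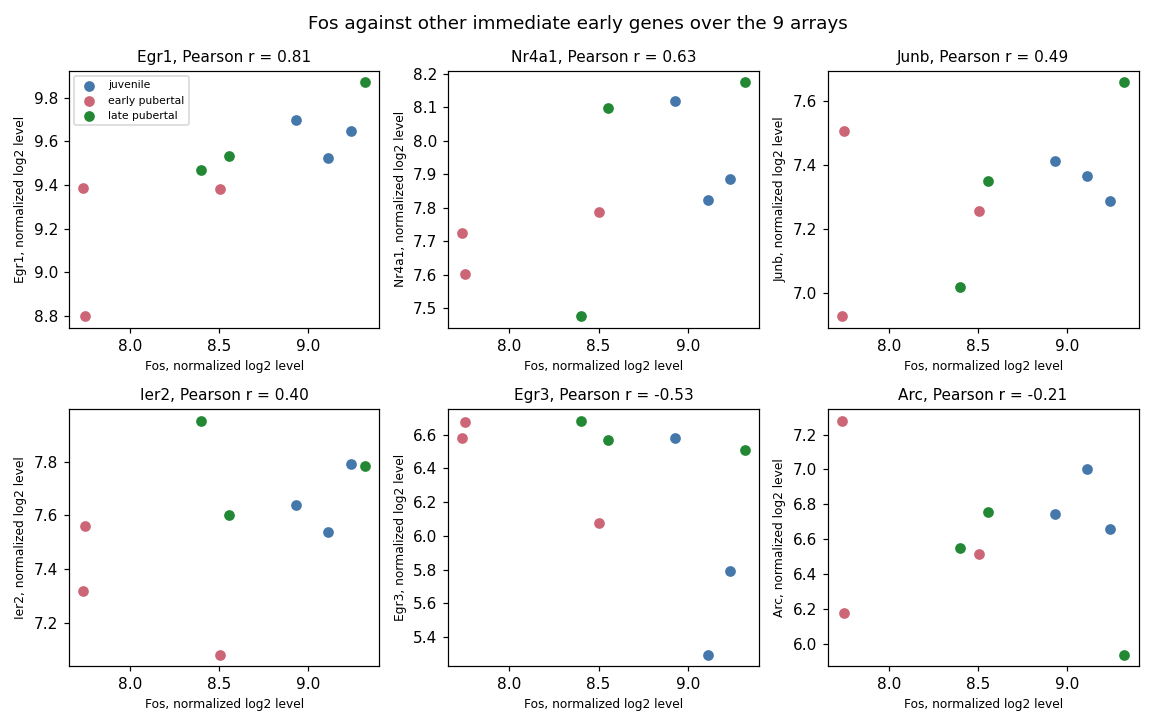
Normalized log2 level of Fos (x axis) against 6 other members (y axis, each on its own range) on the 9 arrays, coloured by stage, with Pearson r over all 9. Egr1 follows Fos at r = 0.81, while Egr3 (−0.53) and Arc (−0.21) do not.

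Genes outside the set with the most Fos-like profile were listed by Pearson r over the 9 arrays among 14260 tested, named probe sets, a search in which high values are found without any relation. They were Trim65 (r = 0.97), Ccnd1, the cyclin of the G1 phase (0.97), Virma, a subunit of the RNA m6A methyltransferase complex (0.97), Hexim2 (0.93) and C1h6orf120 (0.93). Against the mean profile of the tested members, the closest were Atp2b3, a calcium pump of the plasma membrane (r = 0.94), the neurotrophin receptor Ntrk3 (0.92), Nap1l2 (0.90), Arpc5l (0.90) and Crkl (0.90).

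The other lists of the activity response had early pubertal medians nearer 0 than the 10 genes, a difference between lists that was not tested. A list score was also taken per rat, the mean of its genes' log2 levels after centring each gene on its mean over the arrays. For the delayed genes below, it was 0.015 to 0.048 in juvenile and −0.077 to −0.041 in early pubertal rats. For the upstream signalling genes it was 0.0098 to 0.053 and −0.036 to −0.0063. Early pubertal and juvenile rats thus did not overlap in these lists, nor in the 10 genes, but did for partners and other rapid-response genes. Among 11 dimerization partners and paralogs, 5 were lower and 6 higher at day 29 than at day 26, where 48.7% of all named genes were lower. Their median was 0.039. The 6 partners and paralogs that passed the filter had a median of −0.085, the other sign. Jund, a constitutive AP-1 partner, had the smallest p of this list, at −0.28 ± 0.12 (SE; limma adjusted p 0.994). Nr4a3, a paralog of Nr4a1, stood at −0.30 ± 0.18, and the Egr corepressors Nab1 and Nab2 at 0.058 ± 0.12 and 0.039 ± 0.16.

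Of 31 other rapid-response genes on the array, 14 were lower and 17 higher at day 29, with a median of 0.013, and 0 of 24 tested passed by limma. Of all named genes, 48.7% were lower, 4.09% had arrays apart and lower and 4.61% apart and higher, and 0% of all tested probe sets passed. Midn, a nuclear factor in the turnover of immediate early proteins, was the 1 gene with arrays apart, at −0.50 ± 0.18. It stayed low at day 31, at −0.44 ± 0.18 from juvenile with arrays apart and 0.052 ± 0.18 from early pubertal rats. In late pubertal rats 19 of the 31 stood higher than in early pubertal ones, with a median of 0.091, where 51.4% of all named genes were lower. Of named genes, 5.11% had arrays apart and higher at day 31 than at day 29, and 5.53% lower. Against day 26 these shares were 5.70% and 5.37%. Gadd45g, a growth arrest and DNA damage gene, stood in late pubertal rats at 0.58 ± 0.16 from early pubertal and at 0.60 ± 0.16 from juvenile rats. Its arrays were apart in both, with limma adjusted p of 0.914 and 0.9998. Errfi1, an inhibitor of the EGF receptor, stood at 0.49 ± 0.17 from juvenile, with arrays apart, and Myc at 0.54 ± 0.26.

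Delayed genes of the activity response were lower at day 29 for 7 of 9, by a small median of −0.078, where 48.7% of all named genes were lower. The 4 named here had the smallest unadjusted p over all 3 comparisons, not at day 29 alone, and their day 29 differences follow: Rgs4, a brake on G-protein signals (−0.17 ± 0.094), the neuropeptide precursor Vgf (−0.10 ± 0.11), the CREB-family repressor gene Crem (−0.21 ± 0.12) and Inhba, which encodes an activin subunit (−0.19 ± 0.30). Their arrays overlapped between all stages, and 0 of the 9 passed by limma in any comparison, as did 0% of all tested probe sets.

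Upstream of these promoters, 14 of 22 signalling genes were lower at day 29, with a median of −0.037 and 0 of 21 tested passing by limma. Of all named genes, 48.7% were lower, 4.09% had arrays apart and lower and 4.61% apart and higher, and 0% of all tested probe sets passed. Mef2d, an activity-dependent factor of neurons, stood at −0.48 ± 0.13 (unadjusted p 0.00351, adjusted 0.994) with arrays apart. Crtc1, the coactivator that calcium sends to CREB, stood at −0.36 ± 0.16 and Camk2b, a calmodulin kinase subunit, at −0.14 ± 0.078, both also apart. Rps6ka5, a kinase of CREB, stood at −0.15 ± 0.14, and at 0.35 ± 0.14 in late against early pubertal rats.

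**Figure D4:**
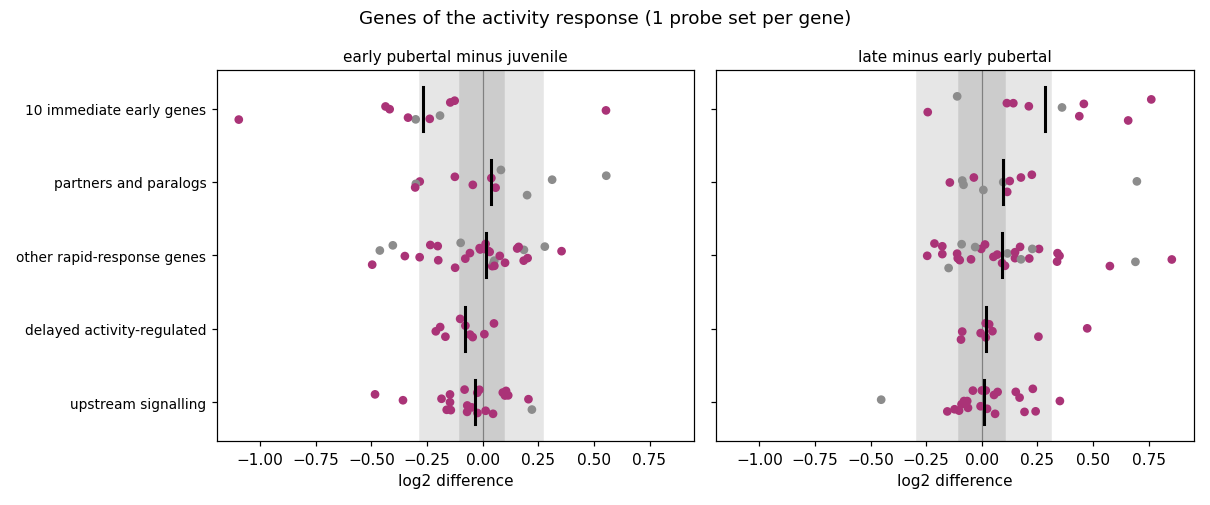
Log2 differences of single genes (points; grey below the signal filter) in the 10 immediate early genes and the other lists, with the median of each list as a black bar; bands span the middle 50% and 90% of all tested probe sets. The 10 genes have a median of −0.27 at day 29 against day 26 and 0.29 at day 31 against day 29, and in these comparisons the medians of the 4 other lists drawn lie between −0.078 and 0.096.

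Marker lists show what the dissected tissue held beside the members. Of the 5 markers of cortex and thalamus on the array, all 5 had a lower mean at day 29 than at day 26 and all 5 a higher mean at day 31 than at day 29. Of all named genes, 48.7% were lower in the first of these comparisons and 51.4% in the second. The summed normalized level of the 5 markers was 1175 to 1343 in juvenile, 1058 to 1139 in early pubertal and 1142 to 1238 in late pubertal rats. Early pubertal rats did not overlap the others in this sum, to which Tcf7l2 gave the brightest level. In the list score, which counts each gene alike, early pubertal (−0.57 to 0.057) and juvenile rats (−0.19 to 0.24) overlapped. Late pubertal rats (0.092 to 0.14) lay above early pubertal ones. Prkcd, a kinase strong in thalamus, stood at −0.42 ± 0.15 at day 29 and at 0.31 ± 0.15 at day 31 against 29, with arrays apart in both. Tcf7l2 stood at −0.17 ± 0.098 at day 29 with arrays apart, while Tbr1, Neurod6 and Slc17a7 lay below the filter. Their part in the levels of the immediate early genes was not tested.

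Neuronal markers overlapped between juvenile and early pubertal rats, at summed levels of 18843 to 21447 and 18708 to 21402, and ran from 18569 to 19275 in late pubertal rats. At day 29 against 26, 6 of the 8 were lower, at day 31 against 26 all 8, and at day 31 against 29, 7 of 8. Of all named genes, 48.7%, 50.3% and 51.4% were lower in that order. Rbfox3, the NeuN antigen, was the 1 neuronal marker that was higher at day 31 against 29, at 0.19 ± 0.076 after −0.20 ± 0.076 at day 29, with arrays apart in both. Syn1, a synaptic vesicle protein, stood at −0.15 ± 0.093 at day 31 against 29 and −0.23 ± 0.093 against 26, and Eno2 at −0.11 ± 0.059 against 26, also apart. Striatal markers, summed at 1137 to 1175, 1042 to 1273 and 1010 to 1173 in the order of age, overlapped. Microglial markers, summed at 1673 to 1782, 1855 to 2036 and 1520 to 1633, were highest in early pubertal rats. Of the 6, however, 2 had a lower mean at day 29 than at day 26, Cd68 (−0.29 ± 0.24) and Cx3cr1 (−0.080 ± 0.27). The part of these cells in the member levels was not tested either.

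In the other marker lists, leptomeninges ran from 5882 to 7496, 6369 to 9005 and 7383 to 8314, and astrocytes from 29236 to 29896, 29602 to 31371 and 29259 to 32088. All 8 leptomeningeal and 6 of 8 astrocyte markers were higher at day 29 and at day 31 than at day 26. Of all named genes, 48.7% and 50.3% were lower. The list score of leptomeninges ran from −0.24 to −0.055, −0.15 to 0.30 and 0.053 to 0.21. That of astrocytes ran from −0.17 to −0.030, −0.071 to 0.12 and −0.0080 to 0.060. Late pubertal rats thus lay above juvenile ones in both scores. The part of these cells in the member levels was not tested. Of the 6 pituitary markers, the hormone subunits Cga, Lhb and Tshb passed the filter, at early pubertal means of 10.87, 7.38 and 7.29, while Prl, Gh1 and Pou1f1 lay below it. No stages were apart in that list.

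For the markers above and below, the shares of all named genes with arrays apart serve as the measure. These were 4.09% lower and 4.61% higher at day 29 against 26, and 5.37% and 5.70% at day 31 against 26. At day 31 against 29 they were 5.53% and 5.11%. Whether markers were apart more often than that was not tested. The remaining markers with non-overlapping stages were these. Higher at day 29 than at day 26 were the astrocyte markers Aldh1l1 (0.33) and S100b (0.10) and the microglial complement genes C1qa (0.17) and C1qb (0.41), while the stress hormone gene Crh (−0.45) and Otx2 (−0.81, below the filter) were lower. At day 31 against 26, Aldh1l1, Gfap, Gjb6, Mgp, Islr, Fmod and Cartpt were higher, by 0.17 to 0.40, and Pde10a, Slco1c1, Otp and Otx2 lower, at −0.22 to −1.11. At day 31 against 29, C1qb (−0.60), Csf1r (−0.25) and Pde10a (−0.17) were lower, and Tbr1 (0.45) and Kcne2 (0.66), both below the filter, were higher. By limma, 0 of the markers tested passed in any comparison, as did 0% of all tested probe sets.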

How the data were processed

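The data are 9 single-channel Affymetrix rat arrays. Per the labels' protocols, tissue went into RNAlater and oligo-dT-primed cDNA was transcribed into biotin-labelled cRNA. The deposited values are linear signal intensities per probe set, which the authors made with MAS5, per the submitters' processing notes; of its scaling and detection calls, the sources used here say nothing. Groups and replicate numbers came from the titles.

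Of 31099 probe sets, 57 controls were left out. Trimmed means (2% at each end) differed up to 1.42-fold between arrays, so log2(signal + 16) was quantile-normalized. Probe sets above the 40th percentile (18625) were fitted with limma 3.58.1 (R 4.3.3), each stage having its own mean, with a trended prior, two-sided tests and Benjamini-Hochberg adjustment within each comparison at 0.05. Correlations used exact permutation over pairings regardless of stage (scipy 1.17.1), with adjustment over 9 members. The scripts were tested on simulated data. The number of arrays limits the precision.

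All 13 member probe sets are named. Of 173 list entries, 158 had a named probe set; the others are not analysed here. Up to 4 genes per pathway list were named by smallest p, 5 by likeness, and markers where stages did not overlap. The members and lists were chosen with earlier results of these data known. Alternatives were constants of 1 and 64, the deposited level, median centring, no filter or the 60th percentile, priors without trend or robust, array weights, only the 6 arrays compared, averaging all probe sets of a gene, and leaving out each array.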

Additional observations from a re-analysis of the deposited data

How the results depend on the processing

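No paired analysis was possible because the stages share no replicate number. Of 414 member differences refitted under the alternatives, 2 passed an adjusted p of 0.05, both of Fos on the deposited level, and 16 turned sign. On the deposited level limma called 10 probe sets at day 29 against 26, 1 at day 31 against 26, 21 at day 31 against 29 and 16 by the F test, in place of 0. The median member difference was then −0.48 at day 29 and 0.51 at day 31 against 29, with 1 member lower in the latter. Egr1 at day 31 against 26 turned to −0.026 there and to −0.039 with median centring. The 60th percentile filter kept only Fos, Egr1, Ier2 and Nr4a1. Their medians were −0.39 and 0.45, and 4, 2 and 0 of these 4 were lower in the 3 comparisons in the order given. Array weights gave 1 call at day 31 against 26.

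Leaving out single arrays, calls stayed at 0 at day 29 against 26 and at day 31 against 29, and were 0 to 1 at day 31 against 26 and by the F test, the 1 without juvenile replicate 2. Members correlated with Fos past the threshold numbered 0 to 2. The median member difference ran from −0.41 to −0.18 at day 29 against 26, from −0.14 to 0.10 at day 31 against 26, and from 0.21 to 0.40 at day 31 against 29. Lower members numbered 8 to 9, 3 to 7 and 1 to 3. Among tested members, signs turned with these ranges: at day 29 against 26, Arc (−0.46 to 0.094), Junb (−0.26 to 0.025) and Egr4 (−0.68 to 0.015); at day 31 against 26, Egr1 (−0.12 to 0.079), Junb (−0.17 to 0.15), Nr4a1 (−0.16 to 0.19) and Egr4 (−0.021 to 0.39); at day 31 against 29, Junb (−0.044 to 0.27), Arc (−0.48 to 0.069) and Egr3 (−0.041 to 0.14). Egr3 passed the filter in 3 of these 9 fits and Egr4 in 8. The cause of these changes was not tested.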
